A study of Mus musculus with 6 samples.

Results

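The mitochondrial carrier family, named SLC25 for solute carrier family 25, was followed in mouse cortical neurons after knockdown of the microRNA miR-27b. Its members were all probes on the bead array whose platform gene symbol starts with Slc25a, 68 probes for 45 genes among 45281 probes in all. A probe counted as detected when its detection p was under 0.05 on at least 3 of the 6 arrays. That left 46 probes for 35 SLC25 genes, among 18627 detected probes for 10822 named genes. The neurons were cultured from cortices of C57BL/6J mice of the genotype Dicerflox/flox, which both groups share, and RNA was taken at day 14 in culture. In the miR-27bKD group a lentivirus lowering miR-27b was added to the neurons, and in the CTKD group a control lentivirus was added, both at a multiplicity of infection of 5. Each group held 3 arrays, and the series describes 3 neuronal preparations. The labels name neither the promoter nor the sequence that either virus carries, and the level of miR-27b itself was not analysed here.

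Mitochondrial carriers are small membrane proteins that pass metabolites, nucleotides, cofactors and ions through the inner mitochondrial membrane, which is otherwise closed to them. Most exchange a substrate of the cytosol for a substrate of the matrix. In neurons they bring ADP and phosphate to ATP synthase, move reducing equivalents inward through the malate-aspartate shuttle, and supply carbon, amino acids, iron and cofactors. A few members sit in other membranes, such as the outer mitochondrial membrane or the peroxisome.

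The microRNA targeted in the series pairs with messenger RNAs mainly through its seed, bases 2 to 8 of the mature strand. The sequence of its 3p strand is shown beside that of its relative miR-27a with the seed in capitals, since the pair have the same seed. RefSeq places the mature miR-27b-3p at chr13:63300760-63300780 on the plus strand of GRCm38.p6.
mmu-miR-27b-3p: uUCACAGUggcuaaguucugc
mmu-miR-27a-3p: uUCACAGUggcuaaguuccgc
Whether any SLC25 messenger RNA holds a site for this seed was not tested.

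Values are log2 intensities after background correction and quantile normalisation, and a difference is miR-27bKD minus CTKD on that log2 scale. Each gene is described by its brightest detected probe, and adjusted p-values come from limma over all 18627 detected probes, with a threshold of 0.05. By that test 4 SLC25 genes were higher in miR-27bKD neurons, 4 were lower and 27 did not pass. The genes that were higher were Slc25a38, Slc25a1, Slc25a10 and Slc25a36, and those that were lower were Slc25a37, Slc25a46, Slc25a12 and Slc25a11. Of these, Slc25a46 met the detection rule only with the CTKD group, where it was brighter. Among all named genes, 15.7% were higher and 13.9% were lower, and in all 22.9% of the SLC25 genes passed, beside 29.6% of all genes. The median difference of the 35 genes was -0.077, beside 0.0087 for all genes, and 18 lay below 0 and 17 above. Values of the groups did not overlap for 7 genes that were higher and 9 that were lower in miR-27bKD neurons, where 25.4% and 23.4% of all genes did so. Among the 7, Slc25a45 met the detection rule only with the miR-27bKD group, where it was brighter. Counted by probe, 7 SLC25 probes were higher and 6 were lower of 46, beside 13.9% and 13.6% of all detected probes. The counts depended on single arrays. Leaving out 1 array left 2 to 4 SLC25 genes higher, the fewest without CTKD replicate 1. It gave 1 to 3 lower, with 1 without miR-27bKD replicate 2 or CTKD replicate 2. There were 2 lower without miR-27bKD replicate 3, CTKD replicate 1 or CTKD replicate 3. Without CTKD replicate 3, Slc25a46, Slc25a12 and Slc25a11 lost their calls, and the count includes 1 gene not called with all 6 arrays. When arrays were scaled to a common median instead, 1 SLC25 gene was higher and 3 were lower. With that scaling 39.0% of all called probes were higher, beside 50.5% with quantiles matched. The median was taken over all 45281 probes, of which at most 42.3% were detected on any array.

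**Figure D1:**
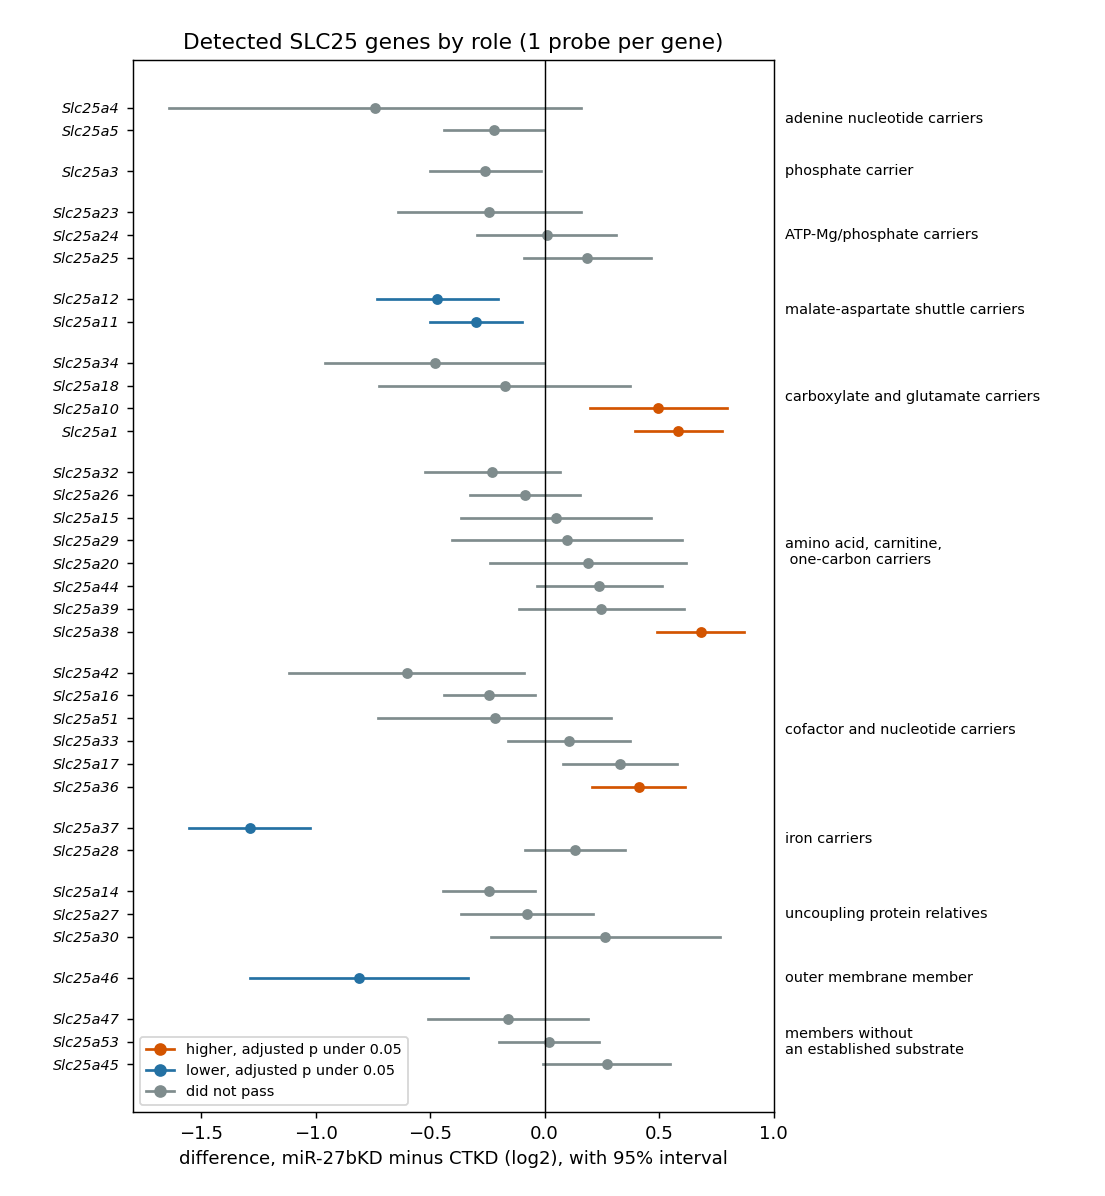
Difference of each detected SLC25 gene (miR-27bKD minus CTKD, log2) with its 95% interval from limma, grouped by role. Differences ran from -1.29 for Slc25a37 to 0.68 for Slc25a38, and the 8 coloured genes passed at an adjusted p under 0.05.

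**Figure D2:**
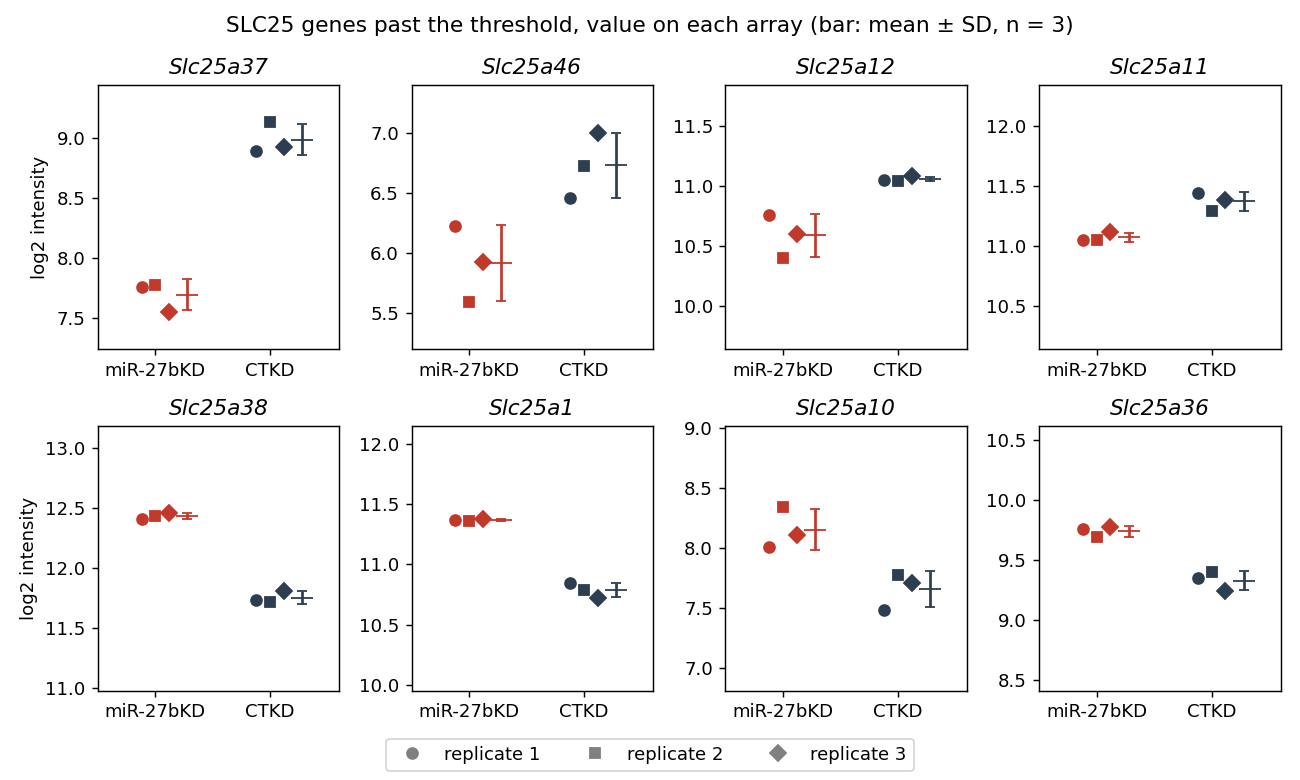
Log2 intensity of the 8 SLC25 genes past the threshold on each array, with mean and SD (n = 3 per group); symbols mark replicate numbers and each vertical axis has its own range. In none of the 8 genes did the groups overlap.

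The 6 arrays were close in signal. The mean intensity per array lay between 669.5 and 787.8, and 17498 to 19163 probes were detected per array. Detected SLC25 probes numbered 41 to 46 per array, and miR-27bKD replicate 3 had the fewest of both. Spearman correlations between arrays, taken across probes, which are not independent replicates, ran from 0.957 to 0.989. With 3 arrays per group, precision is limited by their number, and the p-values measure the spread between these cultures alone.

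Iron carriers showed the family's lowest difference. Slc25a37, or mitoferrin 1, brings iron into the matrix, where it is used for haem and iron-sulphur clusters. Its log2 intensity was 7.76, 7.77 and 7.55 in miR-27bKD neurons, against 8.89, 9.13 and 8.92 in CTKD neurons. All 3 miR-27bKD values lay more than 1 unit below the lowest CTKD value. The difference was -1.29 (SE 0.11, limma adjusted p = 0.000815), or 2.44-fold lower in miR-27bKD neurons. A second detected probe of this gene carries the older symbol Mscp on the platform and so falls outside the family by name. It was found after values had been seen, and read 7.59, 7.72 and 7.30 in miR-27bKD neurons, against 8.93, 8.91 and 8.75 in CTKD neurons. Its difference was -1.33 (limma adjusted p = 0.00119), so both probes were lower. The paralog Slc25a28, or mitoferrin 2, the more widely expressed of the pair, read 10.83, 10.87 and 10.70 in miR-27bKD neurons, against 10.57, 10.72 and 10.70 in CTKD neurons. Those groups overlapped, and its difference of 0.13 (95% interval -0.09 to 0.35) did not pass.

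Carriers of the malate-aspartate shuttle, which moves the electrons of cytosolic NADH into the matrix, were both lower where they could be measured. Slc25a12, or aralar, is the aspartate/glutamate carrier of brain and muscle. It read 10.76, 10.40 and 10.60 in miR-27bKD neurons, against 11.05, 11.04 and 11.08 in CTKD neurons. The CTKD values lay closely together and above all of miR-27bKD, with a difference of -0.47 (SE 0.11, limma adjusted p = 0.0226). The call was lost without miR-27bKD replicate 2 (difference -0.37, adjusted p = 0.0583) and without any one CTKD array (adjusted p from 0.0607 to 0.0704). A second detected probe of Slc25a12, listed under the older symbol B230107K20Rik, had a difference of -0.20 that did not pass (limma adjusted p = 0.391). Slc25a11, the 2-oxoglutarate/malate carrier, read 11.04, 11.05 and 11.11 in miR-27bKD neurons, against 11.44, 11.29 and 11.38 in CTKD neurons. The groups did not overlap, and the difference was -0.30 (SE 0.0844, limma adjusted p = 0.0397). With the replicate number as a block the adjusted p was 0.0615, and without any one array it ran from 0.0591 to 0.132, so the call rests on all 6 arrays. It was also lost under median scaling (adjusted p = 0.10) and without the filter on dim probes (adjusted p = 0.0934). The other 2 Slc25a11 probes had differences of -0.25 and -0.19, and neither passed. Citrin, encoded by Slc25a13, had no detected probe.

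Among the carriers of carboxylates and glutamate, both called genes were higher. Slc25a1 exports citrate from the matrix, the carbon source of cytosolic acetyl-CoA. Its brightest probe read 11.37, 11.36 and 11.38 in miR-27bKD neurons, against 10.84, 10.79 and 10.72 in CTKD neurons. The miR-27bKD arrays were nearly equal and all above CTKD, with a difference of 0.58 (SE 0.0797, limma adjusted p = 0.00345). The dimmer Slc25a1 probe read 9.65, 9.83 and 9.93 in miR-27bKD neurons, against 9.32, 9.21 and 9.24 in CTKD neurons. Its difference of 0.55 also passed (limma adjusted p = 0.00936). Slc25a10, which exchanges malate or succinate for phosphate, read 8.01, 8.34 and 8.11 in miR-27bKD neurons, against 7.49, 7.77 and 7.71 in CTKD neurons. That difference was 0.50 (SE 0.126, limma adjusted p = 0.0284), with no overlap. Slc25a10 lost its call without miR-27bKD replicate 2, miR-27bKD replicate 3, CTKD replicate 1 or CTKD replicate 3 (adjusted p from 0.0547 to 0.0919), and without the filter on dim probes (adjusted p = 0.0606). Under median scaling neither gene passed, at an adjusted p of 0.0879 for Slc25a1 and 0.103 for Slc25a10. Slc25a18, a glutamate carrier known from astrocytes, had a difference of -0.17 (95% interval -0.72 to 0.37). Slc25a34, whose substrate is not established, had a difference of -0.48 and was detected on 1 of 3 miR-27bKD arrays and 2 of 3 CTKD arrays; it did not pass.

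Of 8 measured carriers of amino acids, carnitine and one-carbon units, 1 passed. Slc25a38 brings glycine into the matrix for the first step of haem synthesis, and it had the family's highest difference. Its brightest probe read 12.41, 12.43 and 12.46 in miR-27bKD neurons, against 11.73, 11.71 and 11.81 in CTKD neurons. The groups lay well apart, with a difference of 0.68 (SE 0.0794, limma adjusted p = 0.00202). The other 2 Slc25a38 probes gave 0.81 (limma adjusted p = 0.00367) and 0.92 (limma adjusted p = 0.00393), so all 3 probes were higher. Slc25a39, the glutathione carrier, had a difference of 0.25, and Slc25a44, which carries branched-chain amino acids, had 0.24 with no overlap between groups. The carnitine/acylcarnitine carrier Slc25a20 had 0.19, the basic amino acid carrier Slc25a29 had 0.10 and the ornithine carrier Slc25a15 had 0.05. The S-adenosylmethionine carrier Slc25a26 had -0.08, and Slc25a32, which carries folate and FAD, had -0.23 with no overlap. None of these 7 differences passed. Dimmer probes of Slc25a20 and Slc25a15 gave -0.29 and -0.45, opposite in sign to the brightest, and neither passed (limma adjusted p = 0.291 and 0.201). That of Slc25a20 was detected on all 6 arrays. That of Slc25a15 was detected on 1 of 3 miR-27bKD arrays and 2 of 3 CTKD arrays.

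The carriers of cofactors and nucleotides held 6 measured genes. Slc25a36, a pyrimidine nucleotide carrier, read 9.76, 9.69 and 9.78 in miR-27bKD neurons, against 9.35, 9.40 and 9.24 in CTKD neurons. The groups did not overlap, and the difference was 0.41 (SE 0.0856, limma adjusted p = 0.0150). Without CTKD replicate 1 it narrowly missed the threshold (adjusted p = 0.0521), and under median scaling it missed it clearly (adjusted p = 0.208). A dimmer Slc25a36 probe gave 0.19, and a probe under the older symbol C330005L02Rik gave 0.33; neither passed (limma adjusted p = 0.400 and 0.136). Its paralog Slc25a33 read 10.45, 10.68 and 10.74 in miR-27bKD neurons, against 10.58, 10.40 and 10.58 in CTKD neurons. That overlap went with a difference of 0.10 that did not pass and that was -0.0032 under median scaling. Slc25a17, the peroxisomal carrier of coenzyme A, FAD and NAD, lay just outside the threshold with 0.33 (limma adjusted p = 0.0588). Slc25a16, which is linked to coenzyme A, followed with -0.24 (limma adjusted p = 0.0733). The coenzyme A carrier Slc25a42 had -0.60 (limma adjusted p = 0.0821), and the NAD carrier Slc25a51 had -0.22.

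Slc25a46 differs from the other called members in its place, since its protein sits in the outer membrane and takes part in mitochondrial fusion and fission. It read 6.23, 5.60 and 5.93 in miR-27bKD neurons, against 6.46, 6.73 and 7.0 in CTKD neurons. The groups did not overlap, with a difference of -0.81 (SE 0.199, limma adjusted p = 0.0259). Its probe was dim, and was detected on 1 of 3 miR-27bKD arrays and on all 3 CTKD arrays, so it met the detection rule only with the group where it was brighter. The call was lost without miR-27bKD replicate 2, miR-27bKD replicate 3, CTKD replicate 2 or CTKD replicate 3 (adjusted p from 0.0583 to 0.0716), and without the filter on dim probes (adjusted p = 0.0522).

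The carriers that serve ATP synthase gave differences below 0, and none passed on its brightest probe. Slc25a5, the ADP/ATP translocase ANT2, read 13.52, 13.39 and 13.52 in miR-27bKD neurons, against 13.74, 13.59 and 13.75 in CTKD neurons. The groups did not overlap, but the difference of -0.22 did not pass (limma adjusted p = 0.119). Slc25a4, the ADP/ATP translocase ANT1 of muscle and brain, read 6.55, 5.73 and 5.53 in miR-27bKD neurons, against 6.38, 7.41 and 6.26 in CTKD neurons. It was detected on 1 of 3 miR-27bKD arrays, the groups overlapped, and its difference of -0.74 (95% interval -1.64 to 0.16) did not pass. A dimmer Slc25a4 probe read 5.92, 6.10 and 5.75 in miR-27bKD neurons, against 6.72, 6.44 and 6.34 in CTKD neurons, and its difference of -0.58 did pass (limma adjusted p = 0.0250). That probe was detected on 2 of 3 miR-27bKD arrays and all 3 CTKD arrays, so it met the detection rule only with the group where it was brighter. Slc25a3, the phosphate carrier, read 12.88, 12.74 and 13.00 in miR-27bKD neurons, against 13.18, 13.17 and 13.04 in CTKD neurons. Its difference was -0.26 (limma adjusted p = 0.106), while its dimmer probe gave -0.31 and passed (limma adjusted p = 0.0429). The dimmer Slc25a3 probe was detected on all 6 arrays.

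The calcium-regulated ATP-Mg/phosphate carriers, which load the matrix with adenine nucleotides, did not pass. Slc25a23 read 9.00, 8.90 and 8.64 in miR-27bKD neurons, against 9.01, 8.86 and 9.40 in CTKD neurons. Slc25a24 read 5.88, 5.88 and 5.67 in miR-27bKD neurons, against 5.64, 5.74 and 6.02 in CTKD neurons, and was detected on 2 of 3 miR-27bKD arrays and 1 of 3 CTKD arrays. Slc25a25 read 10.74, 10.57 and 10.52 in miR-27bKD neurons, against 10.40, 10.60 and 10.27 in CTKD neurons. All 3 overlapped between groups, with differences of -0.24, 0.01 and 0.19.

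Relatives of the uncoupling proteins also stayed short of the threshold. Slc25a14, also named UCP5, read 10.35, 10.33 and 10.37 in miR-27bKD neurons, against 10.68, 10.52 and 10.57 in CTKD neurons. Its groups did not overlap, and the difference was -0.24 (limma adjusted p = 0.0769). Slc25a27, or UCP4, read 7.84, 7.74 and 7.92 in miR-27bKD neurons, against 7.85, 7.75 and 8.12 in CTKD neurons, a difference of -0.08. Slc25a30 read 6.45, 6.80 and 6.62 in miR-27bKD neurons, against 6.11, 6.82 and 6.14 in CTKD neurons, a difference of 0.27 with overlap. The last 3 measured members have no established substrate. Slc25a45 had 0.27, Slc25a53 had 0.02 (-0.057 under median scaling) and Slc25a47 had -0.16, and none passed. Slc25a45 was detected on all 3 miR-27bKD arrays and 2 of 3 CTKD arrays, so it met the detection rule only with the group where it was brighter. The dimmer Slc25a53 probe gave -0.15, and a probe under the older symbol 2810402A17Rik, detected on all 6 arrays, gave -0.22. Neither passed, so 2 of its 3 detected probes lay below 0.

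**Figure D3:**
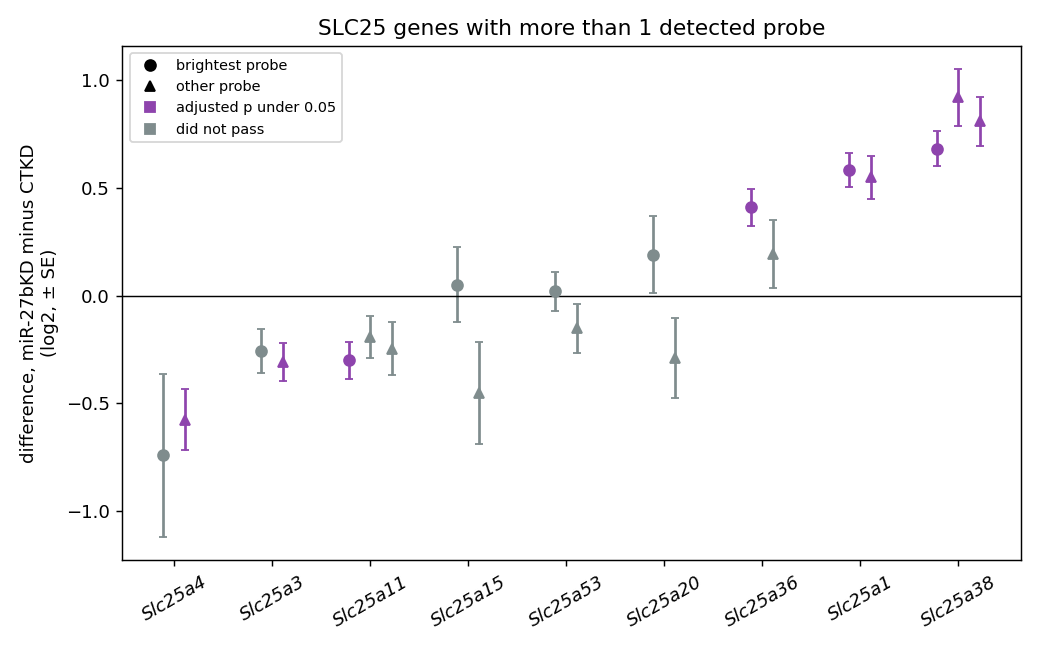
Difference (miR-27bKD minus CTKD, log2, with SE) of every detected probe with an Slc25a platform symbol, for the 9 genes with more than 1. Circles are the brightest probe and triangles the others. Probes under older symbols are not drawn. All probes of Slc25a38 and Slc25a1 passed, and those of Slc25a15, Slc25a53 and Slc25a20 lie on both sides of 0.

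Of the 45 genes, 10 could not be tested, because no probe of theirs reached the detection rule. Slc25a31, Slc25a40, Slc25a41, Slc25a21, Slc25a22, Slc25a13, Slc25a48 and Slc25a54 were detected on no array, and Slc25a2 and Slc25a35 on 1 array each. Slc25a31 encodes the ADP/ATP translocase of germ cells and Slc25a22 a glutamate carrier. A probe at background does not show that its messenger RNA is absent, since probes differ in how well they bind.

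Whether paralogs moved unequally was asked within each array, by subtracting the log2 intensity of one paralog from that of the other. An exact two-sided permutation test with 3 arrays against 3 cannot go below p = 0.1. The 7 pairs tested therefore could not pass, and none did. Slc25a28 minus Slc25a37 was higher by 1.42 in miR-27bKD neurons, with groups that did not overlap (exact p = 0.1, adjusted p = 0.35). It was 1.39, 1.5 and 1.38 in the 3 pairs of same-numbered arrays. Slc25a33 minus Slc25a36 changed by -0.31, also without overlap (exact p = 0.1, adjusted p = 0.35). Its change was uneven over the same-numbered pairs, at -0.53, -0.0086 and -0.38. The other 5 pairs overlapped. They gave -0.52 for Slc25a4 minus Slc25a5, -0.25 for Slc25a23 minus Slc25a24, -0.43 for Slc25a23 minus Slc25a25, -0.16 for Slc25a14 minus Slc25a27 and -0.51 for Slc25a14 minus Slc25a30.

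**Figure D4:**
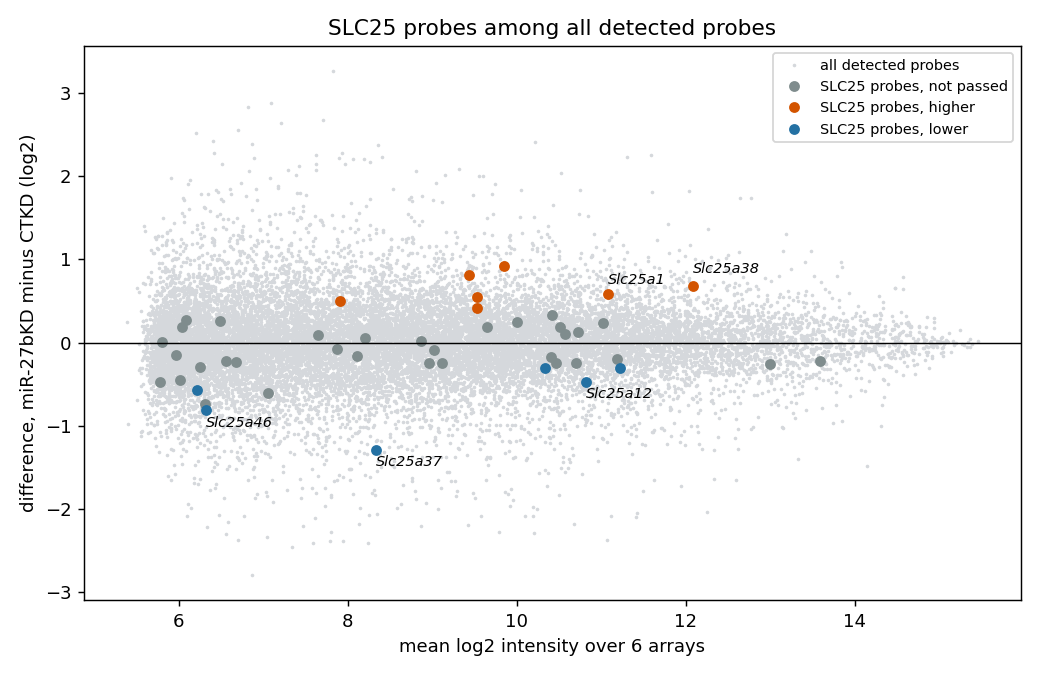
Difference (miR-27bKD minus CTKD, log2) against mean log2 intensity over the 6 arrays, for SLC25 probes in colour and all 18627 detected probes in grey. The called SLC25 probes lie inside the spread of all probes, and Slc25a46 is the dimmest of the 8 called genes.

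Promoters of the called genes are shown for Slc25a38 and Slc25a1, higher on every probe, and for Slc25a12, which was lower. Each window runs from 250 bases before to 50 after the RefSeq gene start, on the gene's own strand in GRCm38.p6. They lie at chr9:120110132-120110431 on the plus strand for Slc25a38, chr16:17928170-17928469 on the minus strand for Slc25a1 and chr2:71367706-71368005 on the minus strand for Slc25a12. Capitals mark motifs found on either strand.
Slc25a38: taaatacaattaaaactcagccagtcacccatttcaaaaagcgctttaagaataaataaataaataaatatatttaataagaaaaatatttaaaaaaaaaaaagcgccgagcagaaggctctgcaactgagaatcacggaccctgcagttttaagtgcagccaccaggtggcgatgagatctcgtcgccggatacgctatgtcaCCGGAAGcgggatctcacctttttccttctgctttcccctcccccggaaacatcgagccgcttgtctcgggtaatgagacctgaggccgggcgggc
Slc25a1: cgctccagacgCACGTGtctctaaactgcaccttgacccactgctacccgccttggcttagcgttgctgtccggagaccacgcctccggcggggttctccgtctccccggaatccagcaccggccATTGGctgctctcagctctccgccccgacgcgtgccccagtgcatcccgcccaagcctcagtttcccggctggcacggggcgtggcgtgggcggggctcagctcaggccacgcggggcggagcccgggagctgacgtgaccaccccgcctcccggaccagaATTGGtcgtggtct
Slc25a12: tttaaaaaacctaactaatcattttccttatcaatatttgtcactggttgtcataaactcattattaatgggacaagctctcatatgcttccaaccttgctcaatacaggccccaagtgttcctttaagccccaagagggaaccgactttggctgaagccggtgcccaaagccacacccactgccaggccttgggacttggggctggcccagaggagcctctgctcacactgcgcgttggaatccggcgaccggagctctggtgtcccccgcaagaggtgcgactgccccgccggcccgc
The capitals in Slc25a38 are the ETS motif CCGGAAG, and those in Slc25a1 are an E-box, CACGTG, and the CCAAT box read from the other strand. Slc25a12 held none of the motifs searched. Of the called genes searched but not shown, Slc25a11, which was lower, held a CCAAT box, as did Slc25a10 and Slc25a36, which were higher. Of the 8 called genes, 6 were searched. Over the 28 detected SLC25 genes whose promoter was searched, 21.4% held the ETS motif, beside 8.86% of 32851 promoters of the same length. The 32851 promoters were not limited to detected genes or filtered by gene, so this share and those below compare unlike sets. The CCAAT box was in 53.6% of SLC25 promoters and in 37.4% of all, and the E-box was in 14.3% of SLC25 promoters and in 7.15% of all. The cyclic AMP response element TGACGTCA was in 3.57% of SLC25 promoters, that of Slc25a36 alone, and in 1.79% of all. The ATF4 motif TGATGNAA was in 0 of the 28, beside 3.97% of all. The NRF1 motif GCGCATGCG was in 0 of the 28, beside 1.75% of all, and a longer NRF1 motif with a free base was in 3.57%, beside 4.6% of all. The E-box is its own reverse complement, as is TGACGTCA, and the shorter NRF1 motif is the start of the longer one where the free base is A. These matches describe letters in the windows.

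Genes that work beside the carriers were read from 10 lists of companions, whose 84 detected genes held 9 that were higher and 12 that were lower. In all 25% of them passed, beside 29.6% of all genes, of which 15.7% were higher and 13.9% lower. In the list of malate-aspartate and glutamate enzymes, 3 of 7 were lower, none was higher, and the median difference was -0.34, beside 0.0087 for all genes. They were Gpd1 at -0.90 and Gpd2 at -0.56, the cytosolic and mitochondrial glycerol-3-phosphate dehydrogenases, and Glud1, glutamate dehydrogenase, at -0.76. Both dehydrogenases belong to the glycerol-3-phosphate shuttle. None of the enzymes of the malate-aspartate shuttle itself passed, with Mdh2 at -0.32 (limma adjusted p = 0.0649), Mdh1 at -0.28 (limma adjusted p = 0.0819) and Got2 at -0.15 (limma adjusted p = 0.263). All 7 differences of the list lay below 0, as did 48.8% of those of all genes. Nat8l, which makes N-acetylaspartate, had -0.34 and passed with the replicate block alone (limma adjusted p = 0.0825, and 0.0441 with the block). Phosphotransfer kinases, which pass phosphate between nucleotides or to creatine, had 3 of 7 lower, none higher and a median of -0.30. Ak4 had -0.81, Ak3 had -0.67 and Ak5 had -0.60, all adenylate kinases. Gpd1 was detected on 1 of 3 miR-27bKD arrays. Glud1 and Gpd1 are also known from glial cells, and 5 of 10 detected astrocyte markers were lower in the same arrays; their part in these differences was not tested.

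In the list of citrate, carnitine and ornithine enzymes, 2 of 9 were higher and none lower, or 22.2% passed beside 29.6% of all genes, with a median of 0.14. Arg2, mitochondrial arginase, had 2.65 (SE 0.258) and was detected on 2 of 3 CTKD arrays, and Aldh18a1, which starts proline synthesis, had 0.81. Among enzymes of mitochondrial one-carbon and glycine metabolism, 2 of 8 were higher and 1 lower, with a median of 0.13. Mthfd2 had 1.81 and Aldh1l2 had 1.70, both folate enzymes of the matrix, while Dld, a subunit shared by the glycine cleavage system and dehydrogenase complexes, had -0.49. Shmt2, which splits serine to glycine in the matrix, had 0.58 and passed with the replicate block alone (limma adjusted p = 0.0884, and 0.0315 with the block). Enzymes of iron-sulphur clusters and haem had 1 of 11 higher and none lower, with a median of -0.13. That gene was Glrx5, which hands on iron-sulphur clusters, at 0.28 (limma adjusted p = 0.0410, and 0.0624 with the replicate block). With the block Alad, an early enzyme of haem synthesis, passed instead, with a difference of 0.34 (limma adjusted p = 0.0591, and 0.0399 with the block).

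Inner membrane transporters outside the family had 3 of 13 higher and none lower, or 23.1% passed beside 29.6% of all genes, with a median of 0.09. Micu2, a regulator of the calcium uniporter, had 1.03, the serine transporter Sfxn1 had 0.45 and its relative Sfxn2 had 0.32. Sfxn2 did not pass with the replicate block (limma adjusted p = 0.0552). The machinery that imports carriers and other proteins had 1 of 13 higher and 2 lower, also 23.1%, with a median of -0.14. Tomm40, the channel of the outer membrane, had -0.67, Tomm7 had -0.35 and Timm29 had 0.53, the last not passing with the replicate block (limma adjusted p = 0.0551). Of 2 detected relatives of the carrier family under other names, Mtch1 was lower at -0.39. None of the 3 voltage-dependent anion channels passed, and the lowest p was that of Vdac3, with 0.22 (limma adjusted p = 0.104). Regulators of mitochondrial biogenesis had none of 11 higher and 2 lower, with a median of -0.03, Ppargc1b at -0.84 and Polg, the mitochondrial DNA polymerase, at -0.49.

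**Figure D5:**
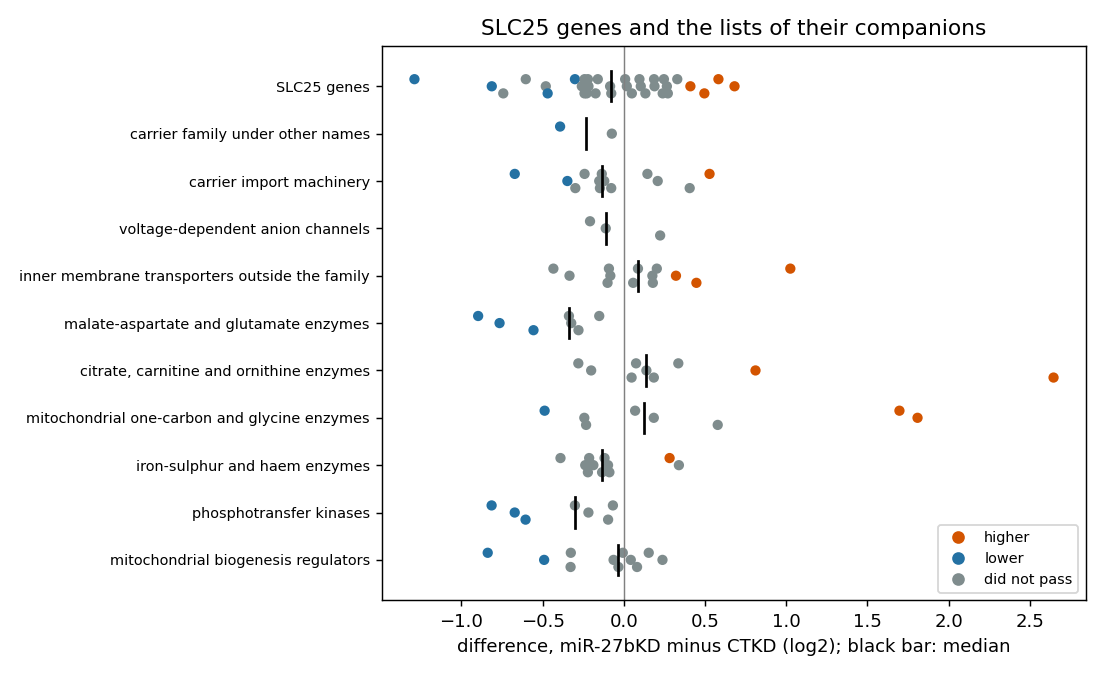
Difference (miR-27bKD minus CTKD, log2) of each detected SLC25 gene and of each gene in the 10 companion lists, with the median as a black bar. The 7 malate-aspartate and glutamate enzymes and the 7 phosphotransfer kinases all lie below 0, and Arg2, Mthfd2 and Aldh1l2 lie farthest to the right.

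Markers of cell types that the cultures could hold moved with the groups too. In bulk RNA, fewer cells of a type and less RNA per cell cannot be told apart. Of 10 detected astrocyte markers, 5 were lower, beside 13.9% of all genes, and none higher. One of the 5, Gjb6, was detected on 0 of 3 miR-27bKD arrays and all 3 CTKD arrays. Gja1 was lower with the replicate block alone (limma adjusted p = 0.0274). The median over the 10 was -0.71, and their summed intensity was 18482 to 23169 in miR-27bKD neurons, against 24694 to 33867 in CTKD neurons. Of 11 detected inhibitory neuron markers, 8 were lower and none higher, with a median of -0.97. Their sums were 32293 to 37834 in miR-27bKD neurons, against 58120 to 64718 in CTKD neurons. Of the 8, Pvalb was detected on 2 of 3 miR-27bKD arrays and all 3 CTKD arrays. It thus met the detection rule only with the group where it was brighter. Of 6 excitatory neuron markers, 2 were higher and 2 lower, with sums of 16104 to 17096 in miR-27bKD neurons, against 15380 to 16065 in CTKD neurons. Of 5 detected markers common to neurons, 2 were lower, with sums of 48689 to 53853 in miR-27bKD neurons, against 60563 to 63761 in CTKD neurons. Rbfox3, Tubb3, Map2, Syp and Eno2 were detected in these cultures labelled as cortical neurons, while the probes of Snap25 and Nefl were not. Of the oligodendrocyte lineage 3 markers were detected and none passed, though Olig1, at -0.63, did with the replicate block (limma adjusted p = 0.0591, and 0.0172 with the block), and Olig2, Sox10, Pdgfra, Mog and Mag were undetected. Their sums were 4692 to 7528 in miR-27bKD neurons, against 8125 to 10824 in CTKD neurons. Aif1 alone of 8 microglia markers was detected and did not pass, at 72.8 to 80.8 in miR-27bKD neurons, against 45.3 to 68.8 in CTKD neurons. Vascular and fibroblast markers had 4 detected and none passed, with sums of 878.2 to 1544 in miR-27bKD neurons, against 835.2 to 1956 in CTKD neurons. Pecam1, at -0.38, passed with the replicate block alone (limma adjusted p = 0.393, and 0.0342 with the block). Its probe was dim, the groups overlapped, and it was detected on 1 of 3 miR-27bKD arrays and 2 of 3 CTKD arrays. Progenitor markers had 4 detected and 1 lower, Hes5, and Nes was higher with the replicate block alone (limma adjusted p = 0.0248), with sums of 658.1 to 924.7 in miR-27bKD neurons, against 662.6 to 941.2 in CTKD neurons. What part these shifts have in the SLC25 differences was not tested.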

How the data were processed

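Messenger RNA was measured on 6 Illumina bead arrays, 3 per group, from 500 ng of RNA and 500000 seeded neurons per well, per the labels' protocols. Per the file headers, the deposited table lists intensities that are not normalised between arrays, each with a detection p-value. The authors also deposited processed intensities, which equalled quantile-normalised values of the first (largest log2 gap 7.18e-10). No source used here gives the scanner software or its background setting.

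Background was corrected by the normexp model from detection p-values with an offset of 16 (limma 3.58.1, R 4.3.3), followed by quantile normalisation and log2. limma was fitted to all 18627 detected probes, with Benjamini-Hochberg adjustment. It was tested on simulated data, whose noise was set to the moderated spread of the fit after a first run with raw spreads recovered too few changes. There the fit found most of the larger changes and few of the smaller ones. Far fewer probes were changed there than were called here, so its recovery does not carry over to these data. Genes that did not pass may still differ. Of 45281 probes, 35784 had 1 gene symbol, 9497 none and 0 several, and 3274 symbols were updated from RefSeq (GRCm38.p6, names only). The files name no genome build.

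Same-numbered arrays deviated together from their group means (correlations 0.115, 0.215 and 0.227). The main limma fit and the paralog permutation test did not use this pairing. A fit with the replicate number as a block was run as an alternative. The members, lists and tests were chosen with earlier results of these data known. All called SLC25 genes and paralog pairs are named with every array, other SLC25 genes with their difference, and up to 4 called genes per companion list, or the one of lowest p. Promoter motifs and probes under older symbols were chosen after values had been seen. The NRF1 motif was searched in 2 forms, the shorter added after the result of the longer.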

Additional observations from a re-analysis of the deposited data

How the results depend on the processing

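In all 20 alternatives run, Slc25a37 and Slc25a38 kept their direction and their call. The replicate block left 4 SLC25 genes higher and 3 lower, Slc25a11 being lost (adjusted p = 0.0615), and changed no other SLC25 call. Of 691 results for the 35 genes under alternatives, 43 called ones lost their call, 17 uncalled ones gained one and 23, all uncalled, changed sign. With median scaling 1 SLC25 gene, 1295 probes in all and 5 companions were higher. Without the filter on dim probes 2 SLC25 genes were lower, with array weights 7, and with a variance trend and robust fit 9 (19 companions). Over all probes 2527 were lower in the main fit, and each of these settings changed that count by a factor of at most 1.5. With 1 probe per gene in the fit, 1663 of 10822 genes were lower, beside 1503 of the same number in the main fit. Leaving out arrays or pairs gave 1 to 4 SLC25 genes higher and 1 to 3 lower. It gave 550 to 2227 probes higher and 663 to 2150 lower in all, and 2 to 9 companions higher and 3 to 12 lower. The SLC25 median was -0.059 without background correction and in the authors' table, -0.11 with median scaling, 0.019 without the filter and 0.034 with strict detection (26 genes), so its sign depends on which dim genes are kept. It ran from -0.11 to -0.0098 when arrays were left out. Leaving out any one same-numbered pair ended the calls of Slc25a10 (adjusted p from 0.0898 to 0.115), Slc25a36 (0.0694 to 0.127), Slc25a11 (0.10 to 0.251) and Slc25a12 (0.0793 to 0.137). Pair 2 or 3 ended that of Slc25a46 (0.148 and 0.116), and pair 1 or 2 that of Slc25a1 (0.0551 and 0.0588). The 7 paralog contrasts kept their direction in every alternative run for them. Differences near 0 changed sign: Slc25a33 was -0.0032 with median scaling, and Slc25a53 was -0.057 with it, -0.0012 with cyclic loess and -0.0027 with array weights. Slc25a15 was -0.053 with array weights. With arrays left out, differences that crossed 0 ran from -0.15 to 0.169 for Slc25a15, -0.016 to 0.312 for Slc25a20, -0.106 to 0.248 for Slc25a29, -0.382 to 0.015 for Slc25a23 and -0.107 to 0.188 for Slc25a24. They ran from -0.34 to 0.028 for Slc25a18, -0.154 to 0.031 for Slc25a27, -0.0501 to 0.097 for Slc25a53 and -0.017 to 0.385 for the dimmer Slc25a36 probe. The cause was not tested.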
